A study of Mus musculus with 44 samples.

Results

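Perfluorononanoic acid (PFNA) was compared with control in ovarian follicles of CD-1 mice in 2 windows of follicle life, and each gene was sorted by the direction of its PFNA difference in each window. The direction was PFNA minus control on a log2 scale within the table of that window. Of 24244 symbols in either deposited table, 16704 were in both and took a direction in each window: 4976 were higher in both windows, 3147 were lower in both, 3898 were higher in maturation and lower in ovulation, and 4683 were lower in maturation and higher in ovulation. The members of each class were thus chosen by the PFNA differences that are described here, so these differences are given as descriptions, without tests of the members.

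All follicles were wild type by label. In the maturation window, which is the gonadotropin-dependent phase of follicle growth, 11 libraries were controls given DMSO, a solvent, and 10 were exposed to PFNA. In the ovulation window all 23 libraries received hCG (human chorionic gonadotropin, which acts like the luteinizing hormone surge): 12 were controls with hCG alone and 11 received hCG with PFNA. The labels give no dose, no exposure time and no animal of origin, so the spread between libraries of a group may be technical. Values are TPM (transcript abundance corrected for transcript length and scaled to 1000000 per library) in maturation, where the read depth is unknown, and CPM (counts scaled to 1000000 per library, with TMM normalization) in ovulation, where libraries held 10600931 to 19511531 counts, and no level was compared across windows because the units differ. A difference below is the difference of the group means of log2(value + 1), PFNA minus control, with its standard error (SE).

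PFNA is a long-chain perfluoroalkyl acid. In liver, compounds of this kind are known to bind PPAR nuclear receptors, which switch on genes of fatty acid uptake and oxidation. A growing follicle is made mostly of granulosa cells around 1 oocyte. Under follicle-stimulating hormone granulosa cells divide and make estradiol through aromatase. The luteinizing hormone surge then stops their division, lowers the growth-phase genes and induces a brief ovulatory programme of epidermal growth factor-like ligands, prostaglandin synthesis and a hyaluronan matrix around the oocyte.

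A gene was tested where its level passed a filter in each window, and was called where its adjusted p was under 0.05 in the maturation window (limma) and in the ovulation window (edgeR). In maturation 29.4% of the genes tested were called, and in ovulation 73.2% were. Of the 11191 genes tested in both windows, 2780 (24.8%) were called in both. They split into 678 higher in both (6.06% of genes tested in both), 673 lower in both (6.01%), 574 higher in maturation and lower in ovulation (5.13%) and 855 lower in maturation and higher in ovulation (7.64%). The direction was the same for 48.6% of the 2780 genes, and also for 48.6% of the 11191 genes. The Spearman correlation of the differences across the genes tested in both was -0.015, with a jackknife SE over the 44 libraries of 0.0334; it is across genes that share libraries and is no test. Of the 1681 genes called higher in maturation, 40.3% were called higher and 34.1% lower in ovulation, and of the 2003 called lower in maturation, 42.7% were called higher and 33.6% lower. Among the 7507 genes not called in maturation these shares were 33% and 40.2%.

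**Figure D1:**
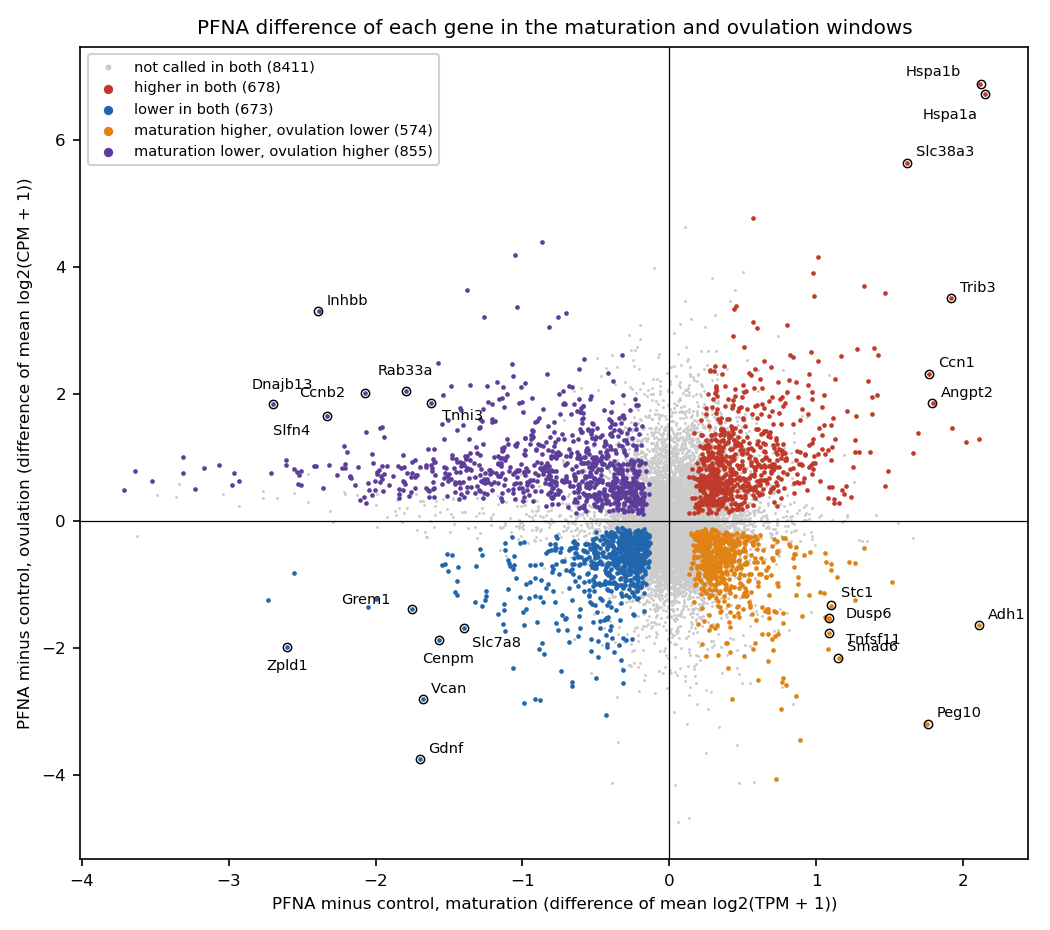
Each point is 1 of the 11191 genes tested in both windows, with its PFNA minus control difference in maturation (x axis, log2(TPM + 1)) and in ovulation (y axis, log2(CPM + 1)). Colours mark the 4 classes of the 2780 genes called in both windows, which fill all 4 quadrants, and circles mark the 6 genes of each class with the largest smaller difference.

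Some libraries stood apart, and some genes lie near the border of a class. On the first principal component of the maturation window, PFNA libraries 1 and 2 (-18.1 and -10.6) lay among the controls (-37.7 to -7.6). The other 8 PFNA libraries lay apart from the controls, at 33.4 to 48.8. PFNA library 10 lay apart on the second component. In ovulation, PFNA libraries 5 and 6 lay at one end of the second component (35.8 and 50.7), and PFNA libraries 10 and 2 at the other (-33.3 and -28.1). In a setting chosen after seeing the data, maturation PFNA libraries 1, 2 and 10 and ovulation PFNA libraries 5 and 6 were left out. These are the 5 libraries meant below as standing apart. Without them the classes held 770, 853, 723 and 1069 genes in the order above. Of these genes 600, 632, 503 and 822 were among those first called. The oocyte RNA share differed between the groups (given below). In a fit that included this share the classes held 276, 159, 193 and 228 genes, so each class fell by over 1.5 times. The share went with the exposure in most libraries, so oocyte RNA and PFNA cannot be told apart by a fall in this fit. In that fit 75 of the 855 genes lower in maturation and higher in ovulation, and 10 of the 673 lower in both, took the signs of another class. Genes nearest to 0 cannot be placed: 3319 of the genes tested in both lay within 0.1 of 0 in maturation and 1258 in ovulation. Just above 0 in maturation stood Tcea1 at 3.3e-05 and just below it Slc45a3 at -3.9e-05, and in ovulation Cox6c at 7.9e-05 and Abraxas2 at -5.8e-06.

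The members of a class varied in size and level. Genes lower in maturation and higher in ovulation had the largest median differences in maturation, -0.65 there and 0.75 in ovulation, against 0.43 and 0.86 for genes higher in both. The medians were -0.34 and -0.6 for genes lower in both, and 0.35 and -0.59 for genes higher in maturation and lower in ovulation. Over all genes tested in both they were 0.03 and -0.03. A difference of at least 1 in each window was reached by 75 genes lower in maturation and higher in ovulation, 43 higher in both, 24 lower in both and 12 higher in maturation and lower in ovulation. Genes lower in both were the most abundant by their median control level, 39.4 TPM, against 8.18 TPM for genes higher in both. In 23 genes higher in both (0.206% of genes tested in both) and 12 lower in both (0.107%), no PFNA library overlapped a control library in either window. Within maturation alone, 0.527% of the genes tested in both had every PFNA library above every control and 0.858% had every one below; in ovulation these shares were 11.5% and 15.6%. In both windows together, 5 (0.0447%) and 8 (0.0715%) genes of the opposed classes had no overlap.

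**Figure D2:**
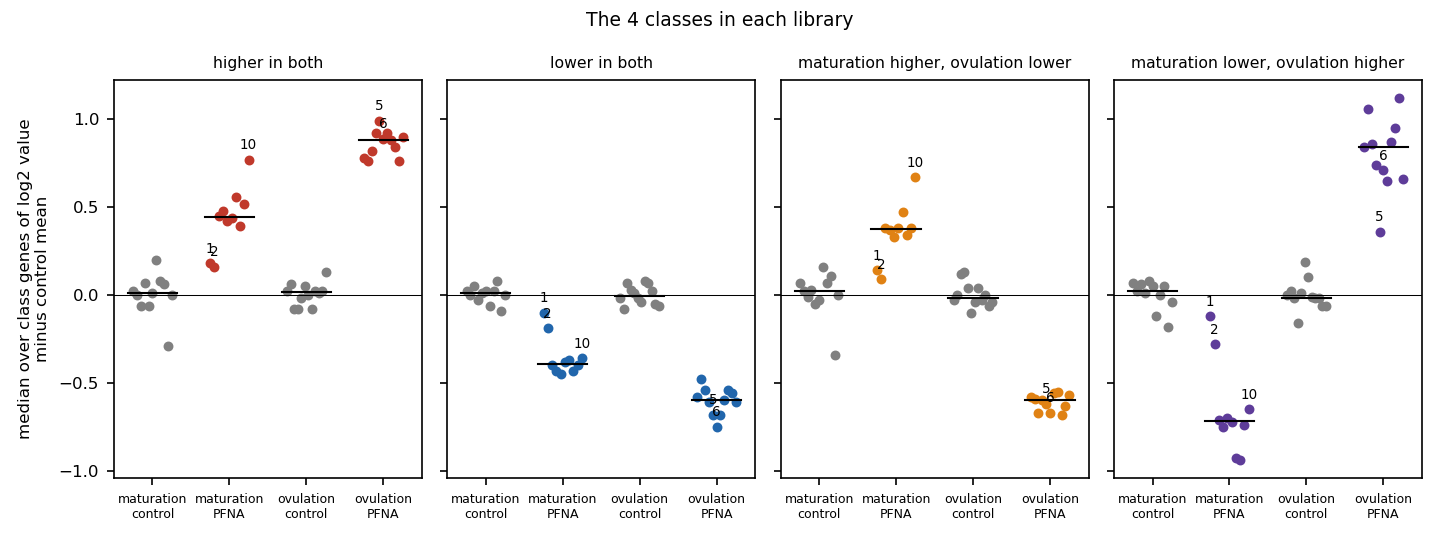
Each point is a library, and the y axis is the median, over the called genes of a class, of the log2 value minus the control mean of its window; bars are group medians and numbers mark the 5 PFNA libraries that stood apart. Among maturation PFNA libraries, 1 and 2 lie nearest to the controls in every class (0.16 is the lowest maturation PFNA value among genes higher in both), and ovulation PFNA library 5 is the lowest, at 0.36, among genes lower in maturation and higher in ovulation.

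Genes higher in both windows included genes of fatty acid oxidation, the amino acid stress response, the circadian clock, heat-shock proteins and the basement membrane. Only 106 of the 678 called genes (15.6%, against 13% of genes tested in both) were in any of the lists used here. The PPAR target list had 16 of its 37 tested members called higher in both, 2 higher in maturation and lower in ovulation, 2 the reverse and 0 lower in both; its median difference was 0.32 in maturation and 0.57 in ovulation. The 16 included the mitochondrial oxidation enzymes Acaa2, Acadl, Decr1, Hadha and Hadhb, the carnitine carrier Slc25a20 and the fatty acid uptake proteins Cd36 and Slc27a1. Like all 41 lists used here, it was chosen with earlier results of these data known, so a count is a description beside the shares of all genes given above.

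Angptl4 (chr17:33773750-33781830) is a secreted inhibitor of lipoprotein lipase. It had 69 to 108 TPM (median 83.9) in maturation controls and 280 to 437 (355) in PFNA libraries, and 96.9 to 134 CPM (114) in ovulation controls and 173 to 375 (269) in PFNA libraries. No PFNA library overlapped a control in either window, and the differences were 2.02 ± 0.08 and 1.24 ± 0.12. Pdk4, a kinase that restrains the entry of pyruvate into the citric acid cycle, differed by 1.01 ± 0.23 and 2.52 ± 0.18. Hadhb, a subunit of the mitochondrial trifunctional protein, differed by 0.73 ± 0.09 and 0.57 ± 0.06. Plin2, a coat protein of lipid droplets, differed by 0.98 ± 0.25 and 0.91 ± 0.24, with overlapping libraries in each window.

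For some enzymes the difference was far larger in ovulation. A larger difference in ovulation was common: it was seen in 544 of the 678 genes called higher in both. Among the 11191 genes tested in both it was seen in 8362, and the units of the windows differ. Acot2, a mitochondrial acyl-CoA thioesterase, had 11.6 to 21.5 TPM (median 17) in controls and 16.9 to 36.7 (26.3) with PFNA in maturation, and 1.51 to 5.42 CPM (3.09) in controls and 59.3 to 151 (112) with PFNA in ovulation. Its difference was 0.57 ± 0.15 in the first window and 4.77 ± 0.17 in the second. Ech1, which handles unsaturated acyl chains in peroxisomes and mitochondria, differed by 0.58 ± 0.07 and 2.09 ± 0.11, and catalase (Cat) by 0.44 ± 0.11 and 1.22 ± 0.12. Of the peroxisome list 4 of 35 tested members were called higher in both, and of the mitochondrial oxidation list 7 of 22. The receptors themselves were not in this class: Pparg differed by -1.02 ± 0.16 in maturation, where it was called, and by -0.11 ± 0.18 in ovulation, where it was not. Ppard differed by 0.02 ± 0.07 and -0.14 ± 0.06 and was called in neither window, and Ppara by 0.15 ± 0.08 (not called) and -0.82 ± 0.18 (called).

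Genes of the ATF4 pathway, through which cells answer amino acid shortage and mitochondrial or ER stress, had 12 of 39 tested members called higher in both, 2 lower in both and 1 lower in maturation and higher in ovulation. Trib3, a pseudokinase and an ATF4 target, had 2.49 to 5.81 TPM (median 4.27) in controls and 11.5 to 30.7 (18.3) with PFNA in maturation, and 0.958 to 4.69 CPM (2.26) and 17.1 to 99.4 (31.7) in ovulation. Every PFNA library was above every control in each window, with differences of 1.92 ± 0.18 and 3.51 ± 0.27. Asns, asparagine synthetase, differed by 0.89 ± 0.13 and 1.58 ± 0.15, also without overlap. Chac1, which degrades glutathione, differed by 0.99 ± 0.29 and 3.55 ± 0.24, and Slc7a3, a transporter of cationic amino acids, by 1.42 ± 0.36 and 2.61 ± 0.22. Slc38a3, a glutamine transporter outside the list, had 2.72 to 9.96 TPM in controls and 7.26 to 32.4 with PFNA, then 0.0688 to 1.43 CPM and 17 to 203, and differed by 1.62 ± 0.25 and 5.64 ± 0.28. The promoters of 19 of 539 genes called higher in both (3.53%, 95% Wilson interval 2.27 to 5.44%) held the amino acid response element. It was searched as TGATGNAAN on either strand in the 250 bases before and 50 after the RefSeq start. The share was 2.05% of 8944 promoters of genes tested in both (1.77 to 2.36%) and 4.04% of all 27025 promoters. The intervals of the class and of the genes tested overlapped. Genes lower in maturation and higher in ovulation had a similar share, 3.16% of 696 promoters (2.1 to 4.74%), so the element was not particular to genes higher in both. Genes lower in both had 1.63%, and genes higher in maturation and lower in ovulation 1.53%. Stretches of 4 promoters of genes higher in both are printed to show the element, with its match in capitals. They are on GRCm38.p6, 5′ to 3′ on the gene's strand, and their genes were picked after their values were seen.

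Chac1, chr2:119351021-119351080, plus strand: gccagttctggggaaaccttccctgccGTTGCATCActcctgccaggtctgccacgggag
Asns, chr6:7693210-7693259, minus strand: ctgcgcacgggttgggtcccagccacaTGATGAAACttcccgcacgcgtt
Serpinf1, chr11:75422624-75422681, minus strand: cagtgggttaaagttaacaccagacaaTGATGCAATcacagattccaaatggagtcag
Pik3cd, chr4:149698792-149698851, minus strand: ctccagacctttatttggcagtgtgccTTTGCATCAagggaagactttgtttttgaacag

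Serpinf1, which encodes a secreted inhibitor of vessel growth, differed by 0.70 ± 0.28 and 0.85 ± 0.25; in maturation it was not called without control library 6 (0.63) or PFNA library 10 (0.50). Pik3cd, a catalytic subunit of phosphoinositide 3-kinase, differed by 0.66 ± 0.18 and 1.41 ± 0.14. In Chac1 and Pik3cd the match is on the strand opposite to the gene. The printed letters are a match only, and no binding was measured.

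The cytosolic heat-shock list had 10 of 47 tested members called higher in both, 5 lower in both and 3 lower in maturation and higher in ovulation. The 10 were chaperones and co-chaperones of stressed proteins (Hspa1a, Hspa1b, Hspa8, Hsp90ab1, Hsph1, Hspb1, Hspb8, Dnaja1, Dnajb1 and Bag3), and the 5 included Cct3 and Tcp1, subunits of the chaperonin that folds actin and tubulin. Hspa1a (chr17:34969190-34972156), an inducible Hsp70, had 176 to 1182 TPM (median 446) in controls and 451 to 4023 (2153) with PFNA in maturation, with 9 of 10 PFNA libraries above every control. In ovulation it had 3.04 to 9.7 CPM (5.21) in controls and 501 to 1134 (610) with PFNA, with all 11 above every control. The differences were 2.15 ± 0.37 and 6.72 ± 0.16. Hspa1b, its neighbour, differed by 2.12 ± 0.41 and 6.88 ± 0.17. The 2 genes are near copies, so reads could be split between them by the counting, and their values are uncertain singly. Their promoters differ at 3 of 250 bases (98.8% identical), as printed on GRCm38.p6 with the differing bases in capitals.

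Hspa1a, chr17:34972157-34972406, minus strand: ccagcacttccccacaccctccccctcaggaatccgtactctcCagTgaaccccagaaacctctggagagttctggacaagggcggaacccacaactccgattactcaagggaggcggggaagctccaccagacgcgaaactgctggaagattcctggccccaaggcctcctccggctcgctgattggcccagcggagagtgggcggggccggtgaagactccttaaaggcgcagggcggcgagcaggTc
Hspa1b, chr17:34959239-34959488, minus strand: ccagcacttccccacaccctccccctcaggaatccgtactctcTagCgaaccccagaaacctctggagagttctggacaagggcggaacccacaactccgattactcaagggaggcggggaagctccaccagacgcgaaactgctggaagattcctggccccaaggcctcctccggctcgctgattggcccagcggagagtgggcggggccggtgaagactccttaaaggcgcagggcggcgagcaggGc

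Immediate-early transcription factors called in both windows were split between being higher in both and being higher in maturation and lower in ovulation. Of 35 tested members 6 were called higher in both (Egr1, Jun, Klf2, Klf6, Myc and Nr4a2), 6 higher in maturation and lower in ovulation (Junb, Klf4, Klf9, Klf10, Nfil3 and Zfp36l1) and 0 lower in maturation. Jun, a subunit of the AP-1 factor, had 777 to 2652 TPM (median 1397) in controls and 1249 to 6634 (2848) with PFNA, with overlap, then 143 to 179 CPM (164) and 875 to 1310 (982) without overlap; the differences were 0.97 ± 0.30 and 2.66 ± 0.06. Junb, its relative, differed by 0.95 ± 0.34 and -1.17 ± 0.17. Klf6 differed by 1.11 ± 0.28 and 1.16 ± 0.10, and Klf4 by 0.86 ± 0.33 and -0.52 ± 0.15. Egr1 differed by 1.10 ± 0.39 and 0.96 ± 0.14, and Fos, which was not called in maturation, by 0.80 ± 0.48 and 0.40 ± 0.14. In maturation PFNA library 5 was the highest for Jun, Junb, Egr1 and Fos. Without maturation control library 6, Egr1, Junb and Klf4 were not called in maturation, at 1.04, 0.88 and 0.76.

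Of the Notch, Wnt and Hippo list 6 of 49 tested members were called higher in both, 6 higher in maturation and lower in ovulation and 2 the reverse, with medians of 0.28 and -0.4. Ccn1, a matrix protein induced by YAP, had 42.6 to 374 TPM (median 168) and 260 to 1801 (436) in maturation, then 29.9 to 58.5 CPM (40.3) and 150 to 294 (192), with differences of 1.77 ± 0.42 and 2.32 ± 0.12. Amotl2, a scaffold that restrains YAP, differed by 1.38 ± 0.19 and 1.96 ± 0.15. Of the collagen and basement membrane list 7 of 33 tested members were called higher in both and 0 in any other class: Col4a1, Col4a2, Col4a5, Col4a6, Fn1, Itga6 and Lamb1. Itga6, a laminin receptor, differed by 1.25 ± 0.28 and 0.86 ± 0.15, and Col4a1 by 0.97 ± 0.33 and 0.73 ± 0.24, with no call in maturation without PFNA library 10 (0.87). Angpt2, which loosens vessels and is not in these lists, differed by 1.79 ± 0.26 and 1.85 ± 0.30. Grb14, an adaptor that restrains insulin receptor signalling, differed by 1.33 ± 0.14 and 3.70 ± 0.14 with no overlap in either window.

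Markers of other cell types were also higher in some PFNA libraries. Summed over 6 immune markers, levels ran from 2.12 to 34.2 TPM in maturation controls and 14.7 to 77.8 with PFNA, and from 1.35 to 42.4 and 2.85 to 60.9 CPM in ovulation. For 8 theca and stroma markers the ranges were 382 to 1199 and 349 to 1654 TPM, then 108 to 1555 and 821 to 2453 CPM. For 6 endothelial markers they were 3.78 to 67.6 and 9.18 to 69.4 TPM, then 30.1 to 123 and 38.8 to 365 CPM. For the surface epithelium markers they were 0.123 to 18.2 and 0 to 56.7 TPM, then 1.18 to 9.5 and 1.23 to 29.4 CPM. Their ovulation median was lower with PFNA, 1.61 CPM against 5.35 in controls, whereas the medians of the other types named here were higher with PFNA in each window. Of the surface epithelium markers 4 had a median of 0 in maturation (Krt19, Krt7, Msln and Upk3b). The ranges overlapped in each case. Of 23 tested theca and stromal genes, 2 were called higher in both and 1 higher in maturation and lower in ovulation. By sign alone, 11 were higher in both, 6 higher in maturation and lower in ovulation, 5 the reverse and 1 lower in both. Of 12 tested endothelial genes 0 were called in both windows. By sign 9 were higher in both, 1 higher in maturation and lower in ovulation and 2 the reverse, with medians of 0.37 and 1.0. Of 7 tested immune genes 2 were called higher in both. By sign 6 were higher in both and 1 higher in maturation and lower in ovulation, with medians of 0.83 and 1.04. Over all genes tested in both, 25.5% were higher in both by sign. C1qa, a complement gene of macrophages, differed by 1.37 ± 0.52 and 1.08 ± 0.41, Cd68 by 0.79 ± 0.30 and 1.07 ± 0.27, and Tagln, a smooth muscle protein, by 1.47 ± 0.40 and 3.59 ± 0.30. In maturation, C1qa and Cd68 were not called without control library 6 (1.10 and 0.77) or without PFNA library 10 (1.25 and 0.69). The part of other cells in the class higher in both was not tested. In libraries of whole follicles, a change in the number of cells of a type and a change in RNA per cell cannot be told apart.

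Of the circadian list 7 of 19 tested members were called higher in both (among them Bhlhe41, Cry2, Nr1d1, Nr1d2, Per2 and Per3), 4 higher in maturation and lower in ovulation (Bhlhe40, Clock, Csnk1d and Nfil3) and 1 the reverse (Cry1). Nr1d1, a repressor in the second loop of the clock, had 15.9 to 24.3 TPM (median 21.6) and 25.5 to 57.2 (38.6) without overlap, then 10.4 to 18.6 CPM (13.8) and 14.7 to 46.5 (28.7) with overlap, and differed by 0.88 ± 0.13 and 0.89 ± 0.17. Bhlhe41 differed by 0.63 ± 0.17 and 1.39 ± 0.24, whereas its relative Bhlhe40 differed by 0.55 ± 0.10 and -1.35 ± 0.18. The hour at which follicles were collected is not in the labels. Of the LXR list, genes that carry cholesterol out of cells, 3 of 9 were called higher in both, with Apoe at 1.01 ± 0.35 and 1.05 ± 0.29 and Pltp at 0.67 ± 0.24 and 1.34 ± 0.31, while the exporter Abca1 was opposed at 0.72 ± 0.20 and -1.81 ± 0.16. Of 66 lysosome and autophagy genes 10 were called higher in both, 4 lower in both, 2 higher in maturation and lower in ovulation and 3 the reverse. Ctsk, a lysosomal protease higher in both, stood at 0.65 ± 0.25 and 0.88 ± 0.17. Without the 5 libraries 18 lysosome genes were called higher in both. In maturation, Ctsk was not called without control library 6 (0.61) or PFNA library 10 (0.55), nor Pltp without control library 6 (0.58). With the oocyte share as a covariate, members called higher in both numbered 12 for the PPAR list, 8 for ATF4, 7 for heat shock, 3 for immediate-early factors, 3 for lysosomes, 2 for collagens and 2 for the clock.

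**Figure D3:**
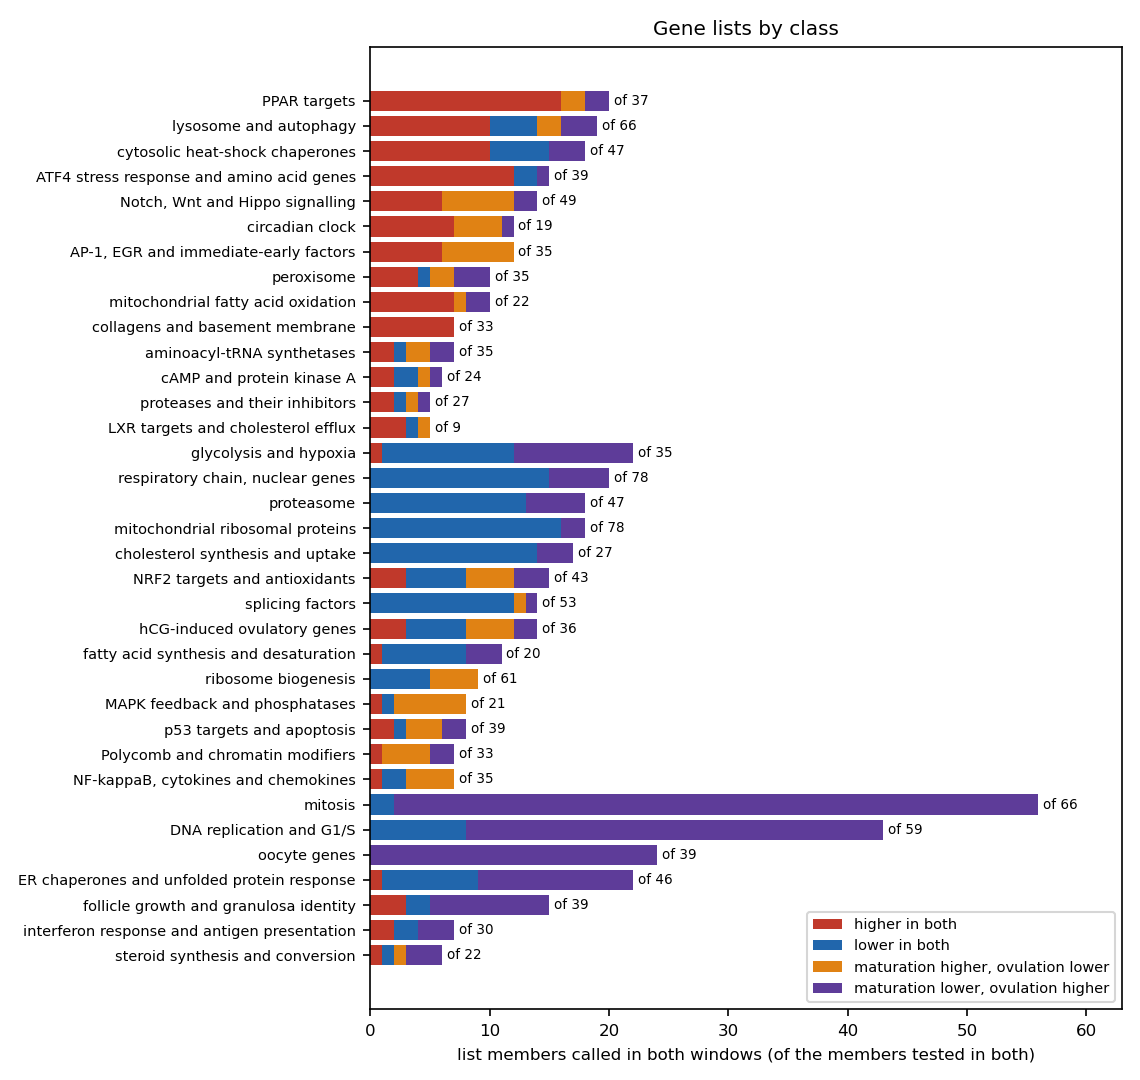
Bars count the members of each gene list that were called in both windows, coloured by class, for the lists with at least 5 such members; the number after each bar is the members tested in both. PPAR targets and ATF4 genes are mostly higher in both, cholesterol synthesis mostly lower in both, and mitosis, DNA replication and oocyte genes mostly lower in maturation and higher in ovulation.

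Genes lower in both windows included genes of sterol and fatty acid synthesis, glycolysis, the respiratory chain, the mitochondrial ribosome, the proteasome and splicing, and 146 of the 673 called genes (21.7%) were in any list. Of the cholesterol synthesis and uptake list 14 of 27 tested members were called lower in both, 3 lower in maturation and higher in ovulation and 0 higher in maturation; the median differences were -0.41 and -1.04. They included enzymes along the pathway, from Acat2, Mvd, Idi1 and Fdps through Fdft1, Sqle, Lss and Cyp51 to Nsdhl and Sc5d, with the regulator Srebf2 and the carrier Stard4. Acat2, a cytosolic thiolase at the start of the pathway, had 98.1 to 195 TPM (median 134) and 33.4 to 92.7 (75.8), then 72.2 to 139 CPM (97.9) and 22.9 to 64.6 (37.7). Its groups did not overlap in either window, and the differences were -0.99 ± 0.18 and -1.43 ± 0.15. Mvd differed by -1.04 ± 0.20 and -0.90 ± 0.12. Pmvk, the kinase that acts just before Mvd, was opposed at -0.83 ± 0.18 and 0.85 ± 0.15, as was the sterol reductase Tm7sf2 at -0.59 ± 0.19 and 0.91 ± 0.13. The desaturase genes Fads2 and Fads3 differed by -0.58 ± 0.14 and -0.46 ± 0.22, and by -0.53 ± 0.09 and -1.86 ± 0.15, within a fatty acid synthesis list that had 7 of 20 called lower in both. Fads2 was not called in ovulation without PFNA library 5 (-0.46).

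Of the glycolysis and hypoxia list 25 of 35 tested members were called lower in maturation. Of these 25, 11 were called lower in both and 10 lower in maturation and higher in ovulation. Over all 2003 genes called lower in maturation, 33.6% were called lower and 42.7% higher in ovulation, so such a division was not particular to this list. Pgam1, a glycolytic mutase, had 655 to 974 TPM (median 855) and 265 to 620 (495), then 470 to 797 CPM (613) and 212 to 414 (257), without overlap in either window, and differed by -0.88 ± 0.13 and -1.20 ± 0.11. Slc16a3, a lactate exporter, differed by -2.05 ± 0.54 and -1.36 ± 0.25. Ldha, Hk2, Slc2a1, Pfkl and Tpi1 were in the same class. Aldoc, an aldolase, was opposed at -0.93 ± 0.27 and 1.35 ± 0.14, and Aldoa, Eno1, Gpi1 and Pdk1 were in its class.

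Of 78 tested mitochondrial ribosomal proteins 16 were called lower in both and 2 lower in maturation and higher in ovulation, with Mrpl12 at -0.42 ± 0.11 and -1.08 ± 0.09. Of 78 nuclear genes of the respiratory chain 15 were called lower in both and 5 lower in maturation and higher in ovulation, with cytochrome c (Cycs) at -0.62 ± 0.08 and -0.55 ± 0.09. The medians of this list were -0.25 and -0.09. In maturation 40 members were called lower and 0 higher, beside 16.1% and 13.3% of all genes tested there. In ovulation 22 were called lower and 20 higher, beside 35.3% and 37.8% of all genes tested there. The even split in ovulation was thus not particular to this list. Of 47 proteasome genes 13 were called lower in both, with Psmb5 at -0.26 ± 0.10 and -0.54 ± 0.10, and 22 were without the 5 libraries that stood apart; Psmb5 was not called in maturation without PFNA library 10 (-0.22). Psmb9, the catalytic subunit that replaces its constitutive counterpart in the immunoproteasome, was opposed at -0.89 ± 0.19 and 1.62 ± 0.13. Of 53 splicing factors 12 were called lower in both, with Snrpd1 at -0.50 ± 0.08 and -0.59 ± 0.08. In the fit that included the oocyte share, the mitochondrial ribosome and the proteasome had 0 members left in this class, splicing 1, the respiratory chain 3, glycolysis 7 and cholesterol 7.

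Vcan (chr13:89655312-89742509), versican, a proteoglycan of the expanding cumulus matrix, was lower in both and had 48.3 to 124 TPM (median 80.1) and 8.08 to 66.3 (24) in maturation, then 5116 to 17738 CPM (8147) and 747 to 3026 (1259) in ovulation, where the groups did not overlap. Its differences were -1.68 ± 0.32 and -2.80 ± 0.23. Gdnf, a growth factor for the oocyte and for neurons, differed by -1.70 ± 0.40 and -3.75 ± 0.15, and the bone morphogenetic protein antagonist Grem1 by -1.75 ± 0.48 and -1.38 ± 0.20. Zpld1, named for its zona pellucida-like domain, differed by -2.60 ± 0.49 and -1.99 ± 0.25; in maturation PFNA library 1 had 22.1 TPM, the highest of the 21 libraries, and the other 9 had at most 7.35. Slc7a8, an exchanger of neutral amino acids, had 50.9 to 102 TPM (median 80.3) and 16.5 to 44.2 (26.3), then 4331 to 7132 CPM (5220) and 1021 to 2656 (1592), with no overlap in either window and differences of -1.40 ± 0.17 and -1.69 ± 0.14. Inha, the inhibin alpha subunit, had 26233 to 43694 TPM (median 34768) and 11169 to 32190 (21444) in maturation, and differed by -0.74 ± 0.16 and -0.42 ± 0.09. Has2, which makes hyaluronan, differed by -0.55 ± 0.18 and -1.09 ± 0.28, and Cebpa, a mediator of the luteinizing hormone response, by -0.97 ± 0.15 and -0.99 ± 0.18.

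Some cell-cycle genes were lower in both windows. Ccnd2, the cyclin induced by follicle-stimulating hormone in granulosa cells, had 78.5 to 166 TPM (median 136) and 18.6 to 120 (25.1), then 185 to 292 CPM (218) and 57.7 to 146 (93.5), and differed by -2.0 ± 0.27 and -1.23 ± 0.13. Ccne1, another cyclin, which acts at the entry to S phase, differed by -1.27 ± 0.25 and -1.33 ± 0.13, and the centromere protein Cenpm by -1.57 ± 0.30 and -1.87 ± 0.23.

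Genes lower in maturation and higher in ovulation included most of the mitosis list, and 196 of the 855 called genes (22.9%) were in any list. Of 66 tested mitosis genes 54 were called in this class, 2 lower in both (Bub3 and Fzr1) and 0 higher in maturation; the median differences were -1.47 and 0.65. Of 59 genes of DNA replication and S-phase entry 35 were in this class and 8 were lower in both, with medians of -1.05 and 0.42. Ccnb2 (chr9:70407692-70421547), a mitotic cyclin, had 35.6 to 69.3 TPM (median 48) in controls and 5.56 to 39.4 (9.24) with PFNA, where 9 of 10 libraries were below every control. In ovulation it had 4.14 to 14.5 CPM (7.07) in controls and 15.6 to 51.2 (37.4) with PFNA, all above every control, and the differences were -2.07 ± 0.31 and 2.02 ± 0.19. Ndc80, a kinetochore protein, differed by -1.29 ± 0.19 and 1.46 ± 0.21, Prim1, a primase subunit, by -1.29 ± 0.22 and 1.49 ± 0.21, and Timeless, which stabilizes replication forks, by -1.37 ± 0.19 and 1.28 ± 0.22.

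The library medians show how this list varied. The mitosis median, as the deviation from the control mean, ran from -0.31 to 0.33 in maturation controls and from -2.06 to -0.13 with PFNA, where PFNA library 1 overlapped the controls and 9 of 10 were below them. In ovulation it ran from -0.32 to 0.43 in controls and from -0.33 to 1.25 with PFNA, with 8 of 11 above every control and 1, PFNA library 5, below. Without the 5 libraries that stood apart 58 mitosis and 38 replication genes were in this class, and with the oocyte share as a covariate 23 and 10 were.

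The promoters of this class differed in letters from those of the other genes, a property the sorting did not use. The cell-cycle homology region, searched as TTTGAA on either strand, is bound by the DREAM and MuvB complexes that time cell-cycle genes, often with a CCAAT box (CCAAT, bound by NF-Y) nearby. It was found in 18.8% of 696 promoters of the class (16.1 to 21.9%), in 11.5% of promoters of genes tested in both (10.9 to 12.2%) and in 5.47% of 457 promoters of genes higher in maturation and lower in ovulation (3.73 to 7.95%). Among all 27025 promoters 18.1% had it. The CCAAT box was in 46.6% of this class and 46.9% of genes lower in both, against 31.7% of genes higher in maturation and lower in ovulation and 39.5% of genes tested in both. The E2F site (TTTCCCGC) was in 4.6% of this class (3.28 to 6.42%) and 2.24% of genes tested in both. Of the 70 promoters of class members in the mitosis and replication lists 32 (45.7%) had the homology region, and of the 626 outside these lists 99 (15.8%) had it. The CCAAT box was in 64.3% and 44.6% of these promoters and the E2F site in 7.14% and 4.31%. The 120 bases before the start are printed for 4 members that hold both elements, on GRCm38.p6 and 5′ to 3′, with both elements in capitals; the genes were picked after their values were seen.

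Kntc1, chr5:123749606-123749725, plus strand: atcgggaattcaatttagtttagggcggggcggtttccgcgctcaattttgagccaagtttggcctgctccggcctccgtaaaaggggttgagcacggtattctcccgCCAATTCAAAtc
Cdkn3, chr14:46760421-46760540, plus strand: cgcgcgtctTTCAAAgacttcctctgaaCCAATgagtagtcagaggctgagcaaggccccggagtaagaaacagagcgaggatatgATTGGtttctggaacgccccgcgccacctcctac
Cenpn, chr8:116921620-116921739, plus strand: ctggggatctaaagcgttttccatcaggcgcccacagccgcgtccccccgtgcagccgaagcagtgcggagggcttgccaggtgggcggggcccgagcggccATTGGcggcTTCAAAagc
Kif11, chr19:37376262-37376381, plus strand: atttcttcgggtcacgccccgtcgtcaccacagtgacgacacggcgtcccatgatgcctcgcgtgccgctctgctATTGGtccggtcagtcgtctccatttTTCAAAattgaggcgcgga

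Kntc1, a kinetochore protein, differed by -1.42 ± 0.22 and 1.74 ± 0.20. Cdkn3, a phosphatase of cyclin-dependent kinases, differed by -1.18 ± 0.19 and 1.58 ± 0.09, the centromere protein Cenpn by -1.04 ± 0.22 and 1.23 ± 0.17, and the spindle motor Kif11 by -1.60 ± 0.22 and 0.94 ± 0.16. TTCAAA and ATTGG are the same elements read on the other strand, and in Kntc1 they overlap. For 7 other motifs (CRE, TGACGTCA; AP-1 site, TGANTCA; heat-shock element; RUNX site, TGTGGTT; NR5A half-site, TCAAGGTCA; antioxidant response element, TGACNNNGC; TATA box, TATAAA) the interval of every class overlapped that of genes tested in both, and direct repeat 1 (0.0447% of genes tested) and the sterol response element (0.0224%) matched 0 promoters of any class, which says only that these letters were not in these windows.

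**Figure D4:**
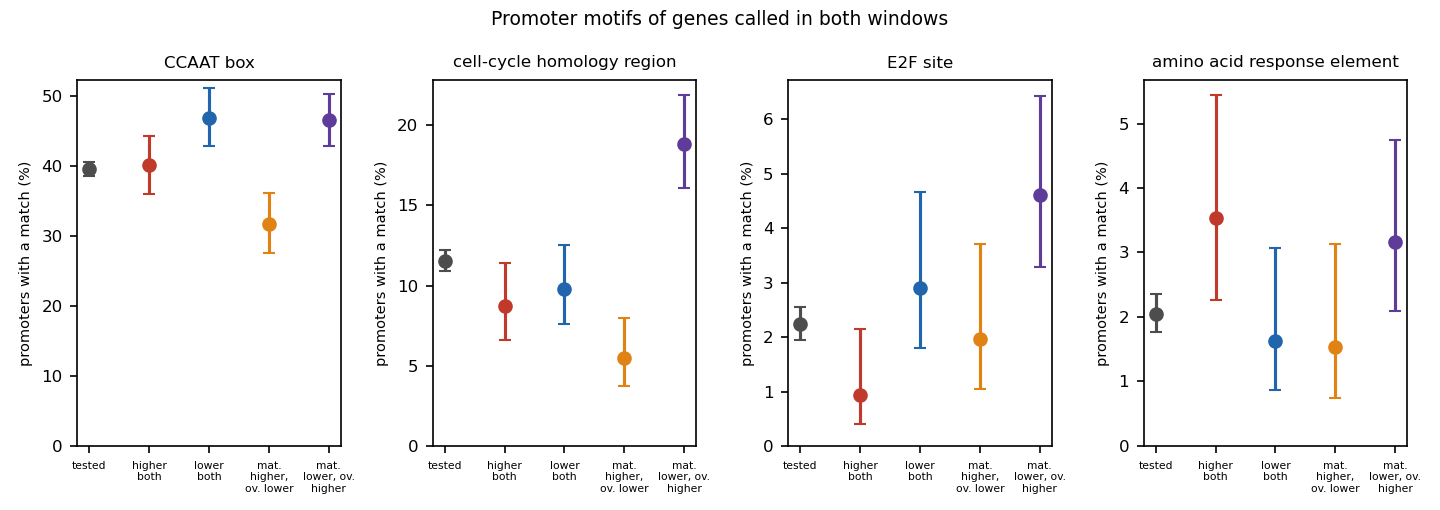
Points give the percentage of promoters (250 bases before to 50 after the start) that hold each motif on either strand, with 95% Wilson intervals, for all genes tested in both windows and for the 4 classes called in both. Genes lower in maturation and higher in ovulation have the highest share with the cell-cycle homology region (18.8%), and genes higher in maturation and lower in ovulation the lowest (5.47%).

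Hormone receptors and enzymes of growing granulosa cells were in the same class. Of the follicle growth list 10 of 39 tested members were called lower in maturation and higher in ovulation, 3 higher in both and 2 lower in both. Fshr (chr17:88984952-89200675), the receptor of follicle-stimulating hormone, had 4.93 to 9.82 TPM (median 6.43) in controls and 0.736 to 3.4 (2.48) with PFNA, then 8.37 to 22.6 CPM (13.4) and 37.3 to 87.7 (61.5). Its groups did not overlap in either window, and it lay on opposite sides, at -1.24 ± 0.16 and 2.13 ± 0.16. Cyp19a1, aromatase, had 17.2 to 30.6 TPM (median 21.9) and 4.07 to 19.7 (12.9), then 28.1 to 80 CPM (38.7) and 100 to 351 (206), and differed by -0.98 ± 0.24 and 2.17 ± 0.24. Inhbb, the beta B subunit of inhibin and activin, had 6575 to 10799 TPM (median 9571) and 203 to 9868 (2327), then 21.6 to 234 CPM (69.7) and 129 to 1529 (808), and differed by -2.39 ± 0.61 and 3.30 ± 0.41. Nr5a2, a nuclear receptor needed for ovulation, differed by -0.51 ± 0.10 and 1.29 ± 0.15, and Hsd11b2, which inactivates glucocorticoids, by -1.38 ± 0.28 and 3.63 ± 0.29. Amh, anti-Müllerian hormone, varied between 1.78 and 105 TPM among maturation controls alone and differed by -1.81 ± 0.66 and 1.04 ± 0.60, with no call in maturation without PFNA libraries 1 and 2 (-1.63).

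Other granulosa genes did not follow. Foxl2, a granulosa identity factor, was called in neither window at -0.22 ± 0.10 and -0.33 ± 0.26. Inhba differed by -0.31 ± 0.17, not called, and -0.34 ± 0.15, called, and Nr5a1 by 0.19 ± 0.08, not called, and -0.60 ± 0.09, called. Esr2, the beta estrogen receptor, was higher in both at 0.31 ± 0.12 and 1.28 ± 0.14, though not called in maturation without control library 6 (0.31) or PFNA library 10 (0.27). Without PFNA libraries 1 and 2, Foxl2 (-0.29) and Nr5a1 (0.24) were called in maturation. Lhcgr, the receptor of luteinizing hormone and hCG, differed by -0.41 ± 0.35, not called, and 1.35 ± 0.42, called. Summed over 8 granulosa markers, levels were 30534 to 49011 TPM in maturation controls and 13689 to 36030 with PFNA, and 11529 to 18154 and 9276 to 14879 CPM in ovulation. Inha and Inhba made up most of these sums, which therefore say little of the other 6 markers. Amh was 0 in maturation PFNA library 8 and in ovulation PFNA library 3.

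All oocyte genes called in both windows were in this class, 24 of 39 tested members, with medians of -1.99 and 0.63. Nobox, an oocyte transcription factor, had 2.7 to 9.49 TPM (median 5.11) and 0 to 5.05 (0.0784), then 1.76 to 10.1 CPM (3.47) and 5.73 to 21.2 (13.3), and differed by -1.95 ± 0.36 and 1.47 ± 0.23. Gdf9, a growth factor secreted by the oocyte, had 32.8 to 49.8 TPM (median 40.7) in controls and 0.18 to 93.8 (0.801) with PFNA, where library 10 was above every control and 8 of 10 were below them. In ovulation it had 17.3 to 61.8 CPM (22.6) and 7.8 to 119 (54.9), and the differences were -3.31 ± 0.77 and 1.01 ± 0.33. The summed share of the oocyte list was 0.057 to 0.0856% of RNA in maturation controls and 0.00612 to 0.119% with PFNA (median 0.00965%), and 0.0456 to 0.11% and 0.0144 to 0.191% (median 0.135%) in ovulation, where PFNA library 5 was the lowest. The oocyte list had 33 genes in this class without the 5 libraries and 1 with its own share as a covariate. That share is the sum of this same list, so the fall to 1 was built into the fit and shows nothing about the list. In ovulation PFNA library 5, 69.9% of the genes of the class were above the control mean, against 88.7 to 99.6% in the other 10. The part of oocyte RNA in the class as a whole was not tested.

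Chaperones of the endoplasmic reticulum were separate from the cytosolic ones. Of 46 tested members 13 were called lower in maturation and higher in ovulation, 8 lower in both and 1 higher in both (Os9); the 13 became 8 in the fit that included the oocyte share. The 13 included Hspa5, Hsp90b1, Calr, Canx, Hyou1, P4hb, Pdia3, Pdia4 and Pdia6, which fold secreted proteins. Sdf2l1 differed by -1.26 ± 0.24 and 0.76 ± 0.18 and Manf, a secreted ER stress factor, by -0.76 ± 0.15 and 0.42 ± 0.09, whereas Wfs1, an ER membrane protein, was lower in both at -0.95 ± 0.12 and -1.21 ± 0.12. Trib3 and Chac1, described above, were higher in both. The remaining leading genes of this class were Dnajb13, a protein of motile cilia, at -2.70 ± 0.55 and 1.84 ± 0.19, the small GTPase Rab33a at -1.79 ± 0.32 and 2.04 ± 0.19, Slfn4 at -2.33 ± 0.56 and 1.65 ± 0.25, and the troponin Tnni3 at -1.62 ± 0.30 and 1.85 ± 0.16.

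Genes higher in maturation and lower in ovulation included feedback inhibitors of growth factor signalling. Only 55 of the 574 called genes (9.58%) were in any list. Of 21 tested members of the MAPK feedback list 6 were called in this class (Dusp6, Errfi1, Rasa1, Spred1, Spred3 and Spry2), 1 higher in both (Spry1) and 1 lower in both (Rgs2); the 6 became 1 in the fit that included the oocyte share. Dusp6 (chr10:99263231-99267489), a phosphatase that inactivates ERK, had 18.7 to 48.8 TPM (median 31.3) in controls and 41.8 to 117 (65.7) with PFNA, with 9 of 10 libraries above every control. In ovulation it had 137 to 263 CPM (159) in controls and 42.2 to 101 (55.5) with PFNA, without overlap, and the differences were 1.09 ± 0.18 and -1.53 ± 0.15. Spry2, which restrains receptor tyrosine kinases, differed by 0.71 ± 0.16 and -1.41 ± 0.14, and Socs3, which restrains cytokine receptors, by 0.86 ± 0.22 and -2.76 ± 0.18.

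The ovulatory list was spread over all classes among genes called in both: 5 of 36 tested members lower in both, 4 higher in maturation and lower in ovulation, 3 higher in both and 2 lower in maturation and higher in ovulation. Its median was 0.23 in maturation and -0.99 in ovulation. Ereg, an epidermal growth factor-like ligand, had 0.455 to 3.21 TPM (median 1.49) and 0.931 to 6.06 (3.32), with overlap and near the bottom of the range, then 1365 to 4372 CPM (2195) and 37 to 735 (132) without overlap. Its differences were 0.73 ± 0.23 and -4.06 ± 0.39, and those of Areg, another such ligand, 0.77 ± 0.31 and -2.53 ± 0.35. The control mean of Areg in maturation was 0.953 TPM, and Areg was not called there without control library 6 (0.77) or without PFNA libraries 1 and 2 (0.74). Ptgs2, the inducible prostaglandin synthase, had at most 1.62 TPM in any maturation library and was not called there at 0.17 ± 0.15; in ovulation it had 3282 to 8621 CPM (median 4991) in controls and 74.3 to 249 (161) with PFNA, and differed by -5.22 ± 0.23. The progesterone receptor Pgr differed by 0.37 ± 0.11 and -4.09 ± 0.40, Tnfaip6, which links hyaluronan in the cumulus matrix, by 0.04 ± 0.17 and -4.16 ± 0.30, and Runx1 by 0.33 ± 0.11 and -3.51 ± 0.12. None of these 3 was called in maturation, where Ptgs2, Pgr and Runx1 were under the mean of 1 TPM needed for a test. The steroid genes Star and Cyp11a1 were likewise called in ovulation alone, at 0.39 ± 0.31 and -2.11 ± 0.26, and at 0.59 ± 0.33 and -1.42 ± 0.30. Cebpb differed by -0.21 ± 0.11, not called, and -1.03 ± 0.12, called. Without maturation PFNA libraries 1 and 2, Cyp11a1 (0.77) and Cebpb (-0.29) were called in maturation.

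Cpt1a, the carnitine palmitoyltransferase that admits fatty acids to mitochondria, was in this class with Klf10, unlike the 16 PPAR list members higher in both. It had 7.94 to 16.5 TPM (median 14.3) in controls and 16 to 39.9 (24.1) with PFNA, with 9 of 10 libraries above every control, then 235 to 351 CPM (275) and 82.5 to 127 (101) without overlap, and differed by 0.77 ± 0.14 and -1.45 ± 0.08. The NRF2 and antioxidant list was spread over the classes, with 5 of 43 tested members lower in both, 4 in this class, 3 higher in both and 3 lower in maturation and higher in ovulation. Of the 4, Mgst1, a microsomal glutathione transferase, differed by 0.65 ± 0.08 and -1.42 ± 0.11 and Gclc, which starts glutathione synthesis, by 0.60 ± 0.10 and -0.97 ± 0.13. The leading genes of the class were Peg10, an imprinted gene derived from a retrotransposon, at 1.76 ± 0.43 and -3.19 ± 0.16; Adh1, an alcohol and retinol dehydrogenase, at 2.11 ± 0.32 and -1.64 ± 0.28; Smad6, an inhibitor of bone morphogenetic protein signalling, at 1.15 ± 0.21 and -2.15 ± 0.27; Stc1, a secreted glycoprotein, at 1.10 ± 0.31 and -1.33 ± 0.22; and Tnfsf11, the ligand RANKL, at 1.09 ± 0.40 and -1.77 ± 0.44. Tead1, the DNA-binding partner of YAP, differed by 0.52 ± 0.14 and -0.68 ± 0.16 and was in this class with Tead3, Lrp6, Fzd6, Stk4 and Znrf3, while the YAP targets Ccn1 and Ccn2 were higher in both. Without maturation PFNA library 10 the class held 431 genes, and without PFNA libraries 1 and 2 it held 888. When TPM were rescaled without the 50 most abundant genes it held 862, and 573 of its first 574 genes were among them.

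**Figure D5:**
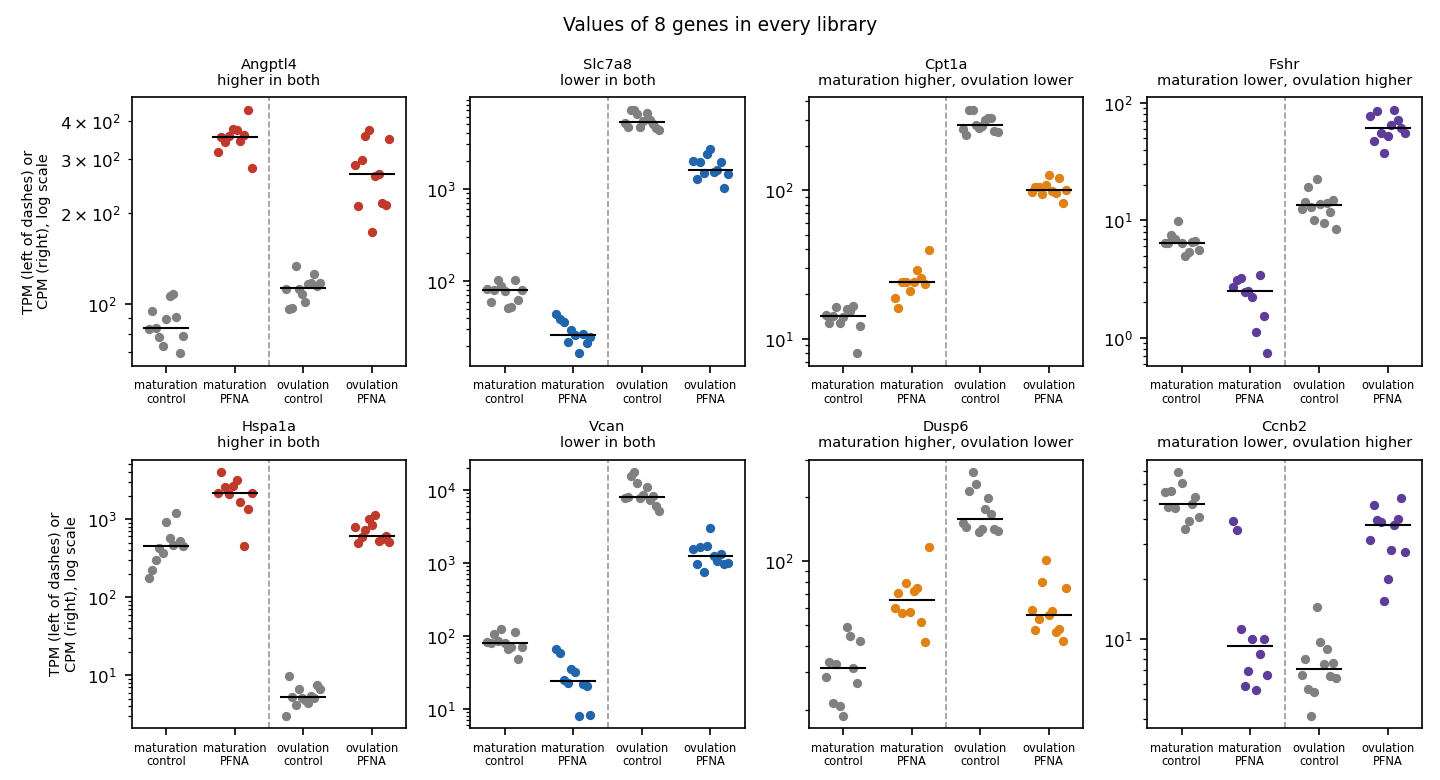
Each point is a library, with TPM left and CPM right of the dashed line on a log axis that has a different unit on each side, and bars are group medians. Angptl4 and Hspa1a are higher with PFNA in both windows, Slc7a8 and Vcan lower in both, and Cpt1a and Dusp6 against Fshr and Ccnb2 change side in opposite order between the windows.

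The classes also differed in gene length and promoter composition, which the sorting did not use. The median of the longest coding sequence, from GENCODE M21 for 97.2% of genes tested in both, was 1392 bases. It was 1846 bases in genes higher in maturation and lower in ovulation, 1678 in genes higher in both, 1326 in genes lower in maturation and higher in ovulation and 1046 in genes lower in both. Median GC content of the promoters was 64.3%, 61.7%, 60.7% and 62.3% in the same order, against 61.3% for genes tested in both. TPM are divided by transcript length and counts are not, and across 7640 genes the ratio of control levels in maturation to those in ovulation had a Spearman correlation of -0.559 with transcript length; the part of this scaling in the length of the called genes was not tested.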

How the data were processed

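RNA sequencing of 44 follicle libraries was analysed from 2 deposited gene tables. Per the labels' protocols, poly-A RNA was selected and cDNA was primed with random hexamers. Per the submitters' processing notes Partek, Bowtie2 and HISAT2 were used; versions, settings, use of strand and the genome build are not given in the sources used here. The authors deposited TPM in the maturation table, although its name says counts: each library summed to 1000000, and 80.2% of values lay over 0.01 from a whole number. Its read depth is unknown, which leaves its precision unknown. The ovulation table holds estimated counts as deposited by the authors (10600931 to 19511531 per library), which were rounded. Maturation positions matched GENCODE M21 on GRCm38 for 99.26% of symbols.

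Symbols turned into dates (24 and 26) were left out. The planned count test was edgeR's quasi-likelihood test (4.0.16, R 4.3.3, TMM, filterByExpr, robust), used in ovulation. Maturation was tested with limma 3.58.1 (trend, robust) on log2(TPM + 1) for genes whose mean reached 1 TPM. The pseudocount of 1 understates changes of low genes. P-values were adjusted over all genes of a window by the Benjamini-Hochberg method. One maturation column that matched no title was taken as control 6, from which it differed by a letter. Libraries of a group were compared and none was a copy (chi-square per degree of freedom at least 7.22 in ovulation; highest correlation 0.981 in maturation). The fits and the sorting were tested on simulated data.

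Classes, members and lists were chosen with earlier results of these data known. Genes named were, per class, the 6 with the largest smaller difference among genes called in both with a group mean of at least 10 TPM and 10 CPM, up to 2 per list and class by the same ranking, a panel of 29 genes, and the genes nearest to 0 in each window. Gene names listed without values, and Chac1, Asns, Serpinf1, Pik3cd, Kntc1, Cdkn3, Cenpn and Kif11, were chosen after their values were seen. Promoters are from RefSeq on GRCm38.p6 (13107 of 16704 symbols matched). Of other settings, pseudocount, filter, scaling, test, threshold, a replicate block, libraries left out and an oocyte covariate were tried. Some genes that meet the rule for named genes are not reported here.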

Additional observations from a re-analysis of the deposited data

Results flagged for a closer look

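Among 162 group ranges of genes and lists examined in the 10 maturation PFNA libraries, 21 had 1 library far from the rest by Dixon's criterion. For independent normal values it flags about 1 in 20 by chance (8.1 here). The TPM of genes were not log-transformed and all ranges share the same libraries, so 21 and 8.1 cannot be compared directly. Library 10 was the highest for Cat (40.9 TPM, next library 31.1), Serpinf1 (34.3, next 13.3), Tagln (61.9, next 35.3), Peg10 (191, next 98.2), Stc1 (166, next 100), Dusp6 (117, next 78.4), Tead1 (8.7, next 5.32), Gdf9 (93.8, next 33.2), Amh (27.3, next 8.36) and Runx1 (1.84, next 1.03). The median deviation from the control mean in that library was also the highest for the peroxisome list (0.22, next 0.09) and the Notch, Wnt and Hippo list (0.78, next 0.36). Library 5 was the highest for Ccn1 (1801 TPM, next 871), Jun (6634, next 3935), Egr1 (4030, next 2162), Junb (681, next 331) and Fos (2073, next 775). Library 1, which lay near the controls, was the highest for Zpld1 (22.1 TPM, next 7.35), Ccnd2 (120, next 60.2) and Timeless (13.1, next 6.97), and library 8 for Adh1 (254, next 128).

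Of the 54 opposed genes named here, 27 stood on one side of the control mean in every maturation PFNA library and on the other in every ovulation PFNA library. Many of the 54 were named for large opposed differences; of all 1429 opposed genes called in both windows, 404 (28.3%) did so. The difference between windows was not tested, since the tables are in different units. Subtracting the maturation from the ovulation difference gave negative values for Peg10 (-4.95), Pgr (-4.45), Smad6 (-3.31), Dusp6 (-2.62), Stc1 (-2.44), Cpt1a (-2.22), Junb (-2.12), Spry2 (-2.12), Mgst1 (-2.07), Bhlhe40 (-1.90) and Gclc (-1.57). It gave positive values for Ccnb2 (4.09), Slfn4 (3.98), Rab33a (3.83), Tnni3 (3.48), Nobox (3.43), Fshr (3.37), Cyp19a1 (3.16), Kntc1 (3.16), Ndc80 (2.76), Cdkn3 (2.76), Timeless (2.65), Kif11 (2.53), Aldoc (2.29), Nr5a2 (1.80), Pmvk (1.69) and Manf (1.18). The medians of the follicle growth list (0.80) and of the ER chaperone list (0.42) were opposite in the same way.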

How the results depend on the processing

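Of 64 class counts, 52 stayed within 1.5 times under the settings tried. At an adjusted p under 0.01 (limma in maturation, edgeR in ovulation) the classes held 346 genes higher in both, 378 lower in both, 212 higher in maturation and lower in ovulation, and 538 the reverse. With the oocyte share as a covariate they held 276, 159, 193 and 228, the genes called in maturation fell from 3766 to 1234 of the shared genes, and the same-sign share of called genes was 50.8%. Genes higher in maturation and lower in ovulation numbered 862 with rescaled TPM and 888 without maturation PFNA libraries 1 and 2. The same-sign share was 51.1% when the mean had to reach 5 TPM and 5 CPM. Leaving out 1 library (maturation control 6, maturation PFNA 10 or ovulation PFNA 5) gave 561 to 674, 634 to 683, 431 to 575 and 815 to 891 genes, same-sign shares of 47.7 to 49.2% (called) and 48.1 to 49.2% (tested), and correlations of -0.032 to -0.016; other single libraries were left out only for the jackknife SE of the correlation, 0.0334, which is larger than the correlation itself. A block for the replicate number gave 407, 532, 268 and 641 genes, and same-sign shares of 50.8% (called) and 49.7% (tested); same-numbered libraries correlated at -0.138 to 0.168 in 9 maturation pairs and -0.194 to 0.0723 in 11 ovulation pairs, and 0 correlated best with their own number, so the numbers were not taken as pairs. Of the differences of the named genes, over all settings, 3509 kept direction and call, 134 lost the call, 11 gained it and 4 reversed: Ppard in maturation (-0.03 with the replicate block, -0.01 without PFNA library 10), Tnfaip6 in maturation (-0.20) and Pparg in ovulation (0.03), both with the oocyte covariate. With only the 250 bases before the start, genes lower in maturation and higher in ovulation had 42.8% with a CCAAT box, 13.9% with the cell-cycle homology region and 3.16% with an E2F site. Genes tested in both had 37.2%, 10.2% and 1.89% in that window. The E2F intervals of the class (2.1 to 4.74%) and of genes tested (1.63 to 2.19%) overlapped there. Genes lower in both had 11.4% with an antioxidant response element, against 12.1% of genes tested in both. Genes higher in both had 0% with a heat-shock element, against 0.291%. Scaling moved the median of all genes by at most 0.03. Depth is unknown in maturation, which limits the genes under 1 TPM.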
